A study of Rattus norvegicus with 8 samples.

Results

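The genes described here are 9 receptors that steer immune cells, namely the chemokine receptors Ccr1, Ccr3, Ccr7, Cx3cr1, Cxcr3 and Cxcr4, the atypical receptors Ackr3 and Ccrl2, and the chemerin receptor Cmklr1. They were taken by symbol from the table of RNA-seq counts, in all 8 libraries, and are 9 of its 23487 genes. Each library came from the peritoneal macrophages of 1 female Wistar rat, 8 weeks old, killed 15 days after an injection into the peritoneal cavity. The 4 CNT-7-treated rats (numbers 3, 5, 10 and 11) received the particle labelled MWCNT-XNRI-7, a straight multi-walled carbon nanotube that causes mesothelioma in rats. The 4 CNT-T-treated rats (numbers 1, 2, 12 and 13) received the same mass of MWCNT-CNT-T, a tangled nanotube that does not. Untreated rats were not analysed here, so that every difference is between the particles. Macrophages were sorted as cells with high CD11b/c and dim His48, a gate that leaves neutrophils and monocytes in other frames. Library totals ran from 27394995 to 30215063 counts after CNT-7 and from 27195157 to 33732981 after CNT-T. The least level taken as detectable, 3 counts, stood for 0.0887 to 0.109 CPM (counts scaled to a library of 1000000). Such a floor covers counting error alone.

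Chemokine receptors are G protein-coupled receptors with 7 membrane passes. A bound chemokine makes them activate inhibitory G proteins, and the cell then moves towards the source or sticks to a vessel wall. Atypical receptors bind chemokines or chemerin without that signal, and take up or present the ligand. In the peritoneal cavity such receptors bring monocytes in from blood, guide dendritic cells out to lymph nodes, and are carried by resident macrophages as well.

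The libraries carried the markers of macrophages. Lyz2, the lysozyme of macrophages, was at 17596 ± 3604 CPM (SD, n = 4) in CNT-7 and 24362 ± 4358 CPM in CNT-T. Csf1r, the receptor for M-CSF, was at 1220 ± 68.2 and 1531 ± 143 CPM, and Gata6, the transcription factor of resident peritoneal macrophages, at 161 ± 14.6 and 131 ± 11.2 CPM. Cd163, a scavenger receptor, was at 180 ± 60.8 CPM in CNT-7 and 582 ± 94.0 CPM in CNT-T, and Adgre1, encoding F4/80, at 271 ± 40.7 and 592 ± 56.6 CPM. All 12 genes of the macrophage list passed the low-count filter, and 3 were called higher and 5 lower in CNT-7 by edgeR. Of all genes tested, 13.9% were called higher and 14% lower. The genes named were picked from the list after their values were seen.

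Of the 9 receptors, 8 passed the filter on low counts, as did 12124 genes of the table. Ccr3 did not. Ccr7 passed through the CNT-7 rats alone, since no CNT-T rat had more than 9 of its counts. In the quasi-likelihood test of edgeR, with p-values adjusted by Benjamini-Hochberg and a threshold of 0.10, Cx3cr1, Ccr7, Ackr3 and Ccrl2 were higher in CNT-7, Ccr1 and Cmklr1 were lower, and Cxcr4 and Cxcr3 were not called. That is 4 higher, with Ccr7 among them, and 2 lower of 8 tested, where 27.9% of all genes tested were called, 13.9% higher and 14% lower. Fold changes are given for CNT-7 relative to CNT-T, and their median on the log2 scale was 0.27 over the 8 receptors and 0.0083 over all genes tested. The groups were fully separate for 3 of the 8, with CNT-7 above for 2 and below for 1, against 24.9% of all genes tested. These are bulk samples, in which more cells of a kind and more RNA per cell cannot be told apart.

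**Figure D1:**
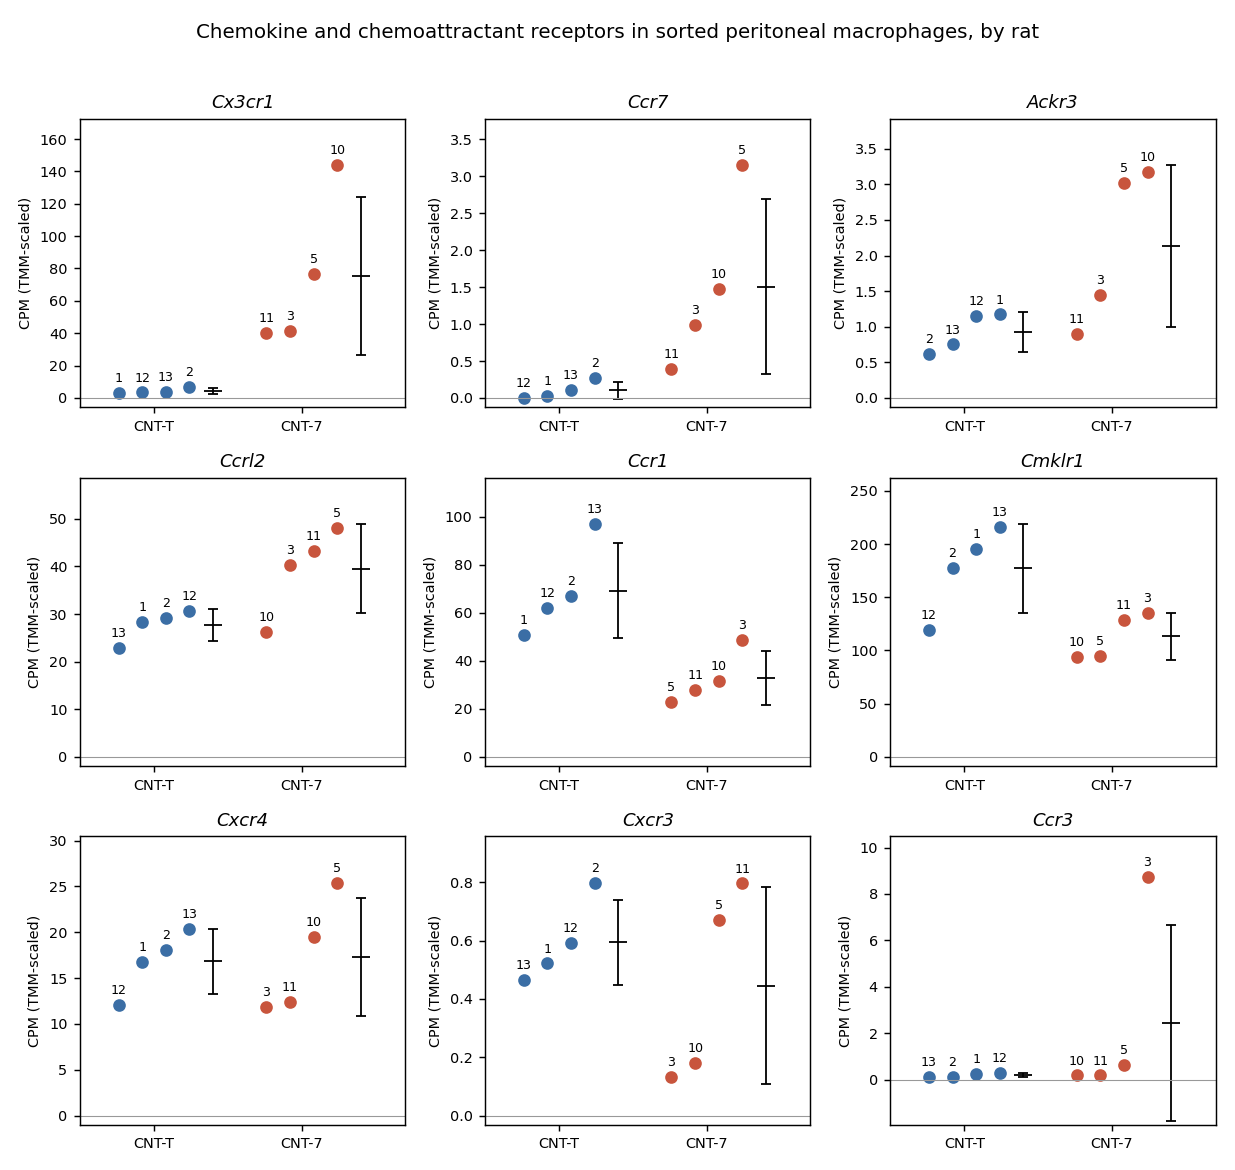
CPM of the 9 receptors in each rat, with a panel and a vertical scale of its own for each gene; points are single rats, labelled with their number and set in order of level within the group, and black marks are the mean ± SD of 4 rats. Cx3cr1 lies between 40.0 and 144 CPM in the CNT-7 rats and at most at 6.77 CPM in the CNT-T rats, while the CNT-7 mean of Ccr3 rests on rat 3, at 8.74 CPM.

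Cx3cr1 is the receptor for fractalkine, a chemokine held on cell membranes, and is carried by blood monocytes and by several tissue macrophages. It was at 41.3, 76.5, 144 and 40.0 CPM in CNT-7 rats 3, 5, 10 and 11, and at 3.29, 6.77, 3.40 and 3.80 CPM in CNT-T rats 1, 2, 12 and 13. The lowest CNT-7 rat therefore lay above the highest CNT-T rat, and within CNT-7 rat 10 stood well above rats 3 and 11, by 3.59-fold over the lowest. The log2 fold change was 4.12 ± 0.47 (SE; adjusted p = 0.00059, edgeR), and in the order of all 12124 log2 fold changes Cx3cr1 was number 39 from the top. Its ligand Cx3cl1 had at most 6 counts in any rat and was not tested.

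Monocytes also carry Cx3cr1. Of 8 monocyte marker genes compared, 7 were tested, 2 were called higher in CNT-7 (Fcnb and Spn) and 2 lower (Plac8 and Ly6c), beside 13.9% and 14% of all genes tested; these names were chosen after their values were seen. Fcnb passed the filter through the CNT-7 rats alone, and was also called without a filter (adjusted p = 0.0153, edgeR). The marker not tested was Ace. It had 35, 6, 23 and 21 counts in CNT-7 rats 3, 5, 10 and 11, and 0, 0, 1 and 1 in CNT-T rats 1, 2, 12 and 13. The summed level was 2571, 2286, 2877 and 2518 CPM in CNT-7 rats 3, 5, 10 and 11, and 3057, 3056, 3065 and 3165 CPM in CNT-T rats 1, 2, 12 and 13, with Plac8 as the gene with the highest mean, although Vcan was above it in CNT-7 rat 10. All CNT-7 rats were thus below all CNT-T rats (exact permutation p = 0.0286, the smallest that 4 against 4 rats can give; 0.0714 after adjustment over 10 marker lists). Without Plac8 the mean was 1257 CPM in CNT-7 and 1042 CPM in CNT-T, with overlapping rats (exact permutation p = 0.457). Their part in the level of Cx3cr1 was not tested.

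Ccr7 guides maturing dendritic cells and T cells towards the lymph node chemokines Ccl19 and Ccl21. It had few counts, with 30, 94, 41 and 11 in CNT-7 rats 3, 5, 10 and 11, and 1, 9, 0 and 3 in CNT-T rats 1, 2, 12 and 13. On the CPM scale these were 0.985, 3.15, 1.48 and 0.398, against 0.0326, 0.266, 0 and 0.107. Every CNT-7 rat was above every CNT-T rat, and rats 11 and 2 lay nearest to each other. The log2 fold change was 3.80 ± 0.84 (adjusted p = 0.0111, edgeR). Since a gene that passes the filter through its higher group had to differ, the fit without a filter is given as well, with 3.80 ± 0.82 (adjusted p = 0.00981). The size of the change moved with single rats. It was 3.14 without CNT-7 rat 5 and 4.93 without CNT-T rat 2, with adjusted p-values of 0.0304 and 0.014, and it was called without any one of the 8 rats. Ccl19 had no count in any rat.

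Marker genes of dendritic cells were read beside Ccr7. Of 11 in the table, 6 were tested, of which 4 were called higher in CNT-7 (Ccl22, Ccl17, Clec9a and Batf3) and Fscn1 lower, beside 13.9% and 14% of all genes tested, again named after their values were seen. Ccl22 passed the filter through the CNT-7 rats alone, and its adjusted p-value without a filter was 0.00197 (edgeR). Fscn1 was the most abundant and gave at least 80.4% of the sum in each rat. With it, the sum was 325, 385, 313 and 407 CPM in CNT-7 rats 3, 5, 10 and 11 and 742, 579, 579 and 466 CPM in CNT-T rats 1, 2, 12 and 13. The CNT-7 rats were lower throughout. Without Fscn1 it was 63.8, 36.3, 41.1 and 23.1 CPM against 17.3, 14.3, 11.4 and 8.02 CPM, and the CNT-7 rats were higher throughout (exact permutation p = 0.0286 for either sum). The chemokine genes Ccl17 and Ccl22 made up most of the difference in this smaller sum. Ccl17 was at 18.7 ± 11.2 CPM in CNT-7 and 1.61 ± 0.864 CPM in CNT-T, and Ccl22 at 7.56 ± 4.96 and 0.139 ± 0.165 CPM. Among the other markers of the list, Xcr1 had 3, 6, 2 and 3 counts in CNT-7 rats 3, 5, 10 and 11 and at most 1 in any CNT-T rat, Lamp3 had no count in any rat, Cd209a had 1 count in 1 rat, and Flt3 had 13 counts in CNT-7 rat 5 at most 7 in any other. Zbtb46, a transcription factor of dendritic cells, had 80 to 243 counts in each rat and was not called (log2 fold change -0.22 ± 0.29, adjusted p = 0.653, edgeR). The part of dendritic cells in the level of Ccr7 was not tested.

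Ccr1 binds inflammatory chemokines such as Ccl3, Ccl5, Ccl6 and Ccl9, and is found on monocytes, macrophages and neutrophils. It was at 48.7, 22.9, 31.5 and 27.7 CPM in CNT-7 rats 3, 5, 10 and 11, and at 50.8, 67.2, 62.0 and 96.9 CPM in CNT-T rats 1, 2, 12 and 13. The CNT-7 rats were all lower, but rat 3 came close to CNT-T rat 1. The log2 fold change was -1.08 ± 0.25 (adjusted p = 0.0146, edgeR), and it stayed between -1.34 and -0.88 when any one rat was left out, called each time.

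Ccr3 is the eotaxin receptor of eosinophils. Its counts were 266, 19, 5 and 5 in CNT-7 rats 3, 5, 10 and 11, and 8, 4, 9 and 3 in CNT-T rats 1, 2, 12 and 13. Rat 3 alone was high, at 8.74 CPM, and the remaining 7 rats lay between 0.107 and 0.637 CPM. The groups overlapped, and an exact permutation test of the CPM gave p = 0.286. When no filter on low counts was applied, edgeR gave a log2 fold change of 3.61 ± 1.20 and called it (adjusted p = 0.0712), although 3 of the CNT-7 rats had at most 19 counts.

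Eosinophil markers were mostly near 0. Epx and Prg3, which encode granule proteins of eosinophils, had no count in any rat, and Prg2 had at most 2. Il5ra, the receptor for the eosinophil growth factor IL-5, had 17 counts in CNT-7 rat 3 and at most 1 in any other rat, and Gata1 had 13 counts in that rat and at most 2 elsewhere. CNT-7 rat 3 was thus the highest for Ccr3, Il5ra and Gata1 alike, but not for the markers of the list with more counts. Rnase2 was highest in CNT-7 rat 10, at 84.4 CPM against 55.8 CPM in rat 3. Alox15 and Siglec5 were highest in CNT-7 rat 5, at 74.9 and 305 CPM against 34.4 and 252 CPM in rat 3. Of the 8 listed genes, 3 were tested, and 1 was called higher (Rnase2) and 0 lower, beside 13.9% and 14% of all genes tested. Rnase2 is a member of a family of similar ribonucleases. It passed the filter through the CNT-7 rats alone, and had an adjusted p-value of 8.23e-07 in edgeR without a filter. Over all 8 genes the sum was 343, 413, 367 and 219 CPM in CNT-7 rats 3, 5, 10 and 11 and 226, 218, 195 and 157 CPM in CNT-T rats 1, 2, 12 and 13. Siglec5 was the most abundant, with at least 69% of each sum, and rat 11 overlapped with the CNT-T rats (exact permutation p = 0.0571; 0.0286 with library totals in place of TMM scaling). Without Siglec5 all CNT-7 rats were higher, with 93.1 ± 18.4 CPM against 20.9 ± 17.1 CPM (exact permutation p = 0.0286). Rnase2 made up most of that difference, with 55.7 ± 21.3 CPM in CNT-7 and no more than 1 count in any rat of CNT-T, and Alox15, at 37.1 ± 26.2 against 20.8 ± 17.0 CPM, was not called. The genes of this list named here were chosen after their values were seen, and the part of eosinophils in the level of Ccr3 was not tested.

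Cxcr4 holds immune cells in bone marrow and tissue through Cxcl12. It was at 11.9, 25.4, 19.5 and 12.4 CPM in CNT-7 rats 3, 5, 10 and 11, and at 16.8, 18.1, 12.1 and 20.4 CPM in CNT-T rats 1, 2, 12 and 13. Within CNT-7, rats 5 and 10 were high and rats 3 and 11 low, and all CNT-T rats lay within the CNT-7 range. No difference was detected (log2 fold change 0.04 ± 0.25, adjusted p = 0.937, edgeR), and the estimate ran from -0.21 to 0.18 over the fits without 1 rat.

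Cxcr3 binds the interferon-induced chemokines Cxcl9, Cxcl10 and Cxcl11, and is best known from T and NK cells. With 4, 20, 5 and 22 counts in CNT-7 rats 3, 5, 10 and 11 and 16, 27, 18 and 13 counts in CNT-T rats 1, 2, 12 and 13, it was near the lower limit of what could be compared. The CNT-7 rats fell into a low pair (3 and 10) and a pair at the CNT-T level (5 and 11). It was not called (log2 fold change -0.43 ± 0.53, adjusted p = 0.629, edgeR).

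All 10 T cell markers were in the table, 4 were tested, and Cd8a and Cd2, named after their values were seen, were called higher in CNT-7, beside 13.9% of all genes tested. Cd2 passed the filter through the CNT-7 rats alone, with an adjusted p-value of 0.000418 (edgeR) without a filter. Lck and Cd28 were not called, with log2 fold changes of -0.25 and -0.26. Cd8a had the highest mean over the 8 rats, but Lck had more CPM in each CNT-T rat and in CNT-7 rat 5. The summed level was 16.4, 16.8, 13.6 and 14.2 CPM in CNT-7 rats 3, 5, 10 and 11 against 7.50, 5.97, 6.40 and 7.84 CPM in CNT-T rats 1, 2, 12 and 13, without overlap (exact permutation p = 0.0286, adjusted 0.0714). Without Cd8a it was 9.25 ± 3.22 CPM against 6.03 ± 1.03 CPM (exact permutation p = 0.0286), and the lowest CNT-7 rat, at 7.02 CPM, barely cleared the highest CNT-T rat, at 6.95 CPM. Cd3e, part of the T cell receptor complex, was chosen after its values were seen. In CNT-7 rats 3, 5, 10 and 11 it had 10, 63, 14 and 8 counts. In CNT-T rats 1, 2, 12 and 13 it had 2, 4, 7 and 1. The groups were fully separate for Cd3e, and rat 5 was far above the others. Among the other untested markers of the list, Cd3g, Cd3d, Cd247 and Trat1 overlapped between the groups and Cd5 did not. Rat 5 was the highest for each of them, and they were named after their values were seen. CNT-7 rat 11, with the most Cxcr3 of its group (22 counts), had 8 counts of Cd3e, and rat 5, with 20 counts of Cxcr3, had 63. The part of T cells in the level of Cxcr3 was not tested. Of the remaining marker lists, the exact permutation p-value was 0.486 for NK cells, 0.486 for B cells, 0.6 for mast cells, 0.571 for neutrophils and 0.314 for mesothelial cells, whose sums overlapped between the groups. Csf3r gave at least 68.7% of the neutrophil sum. Of 5 neutrophil markers tested, 0 were called higher and 1 lower, beside 13.9% and 14% of all genes tested. That was S100a8, named after its values were seen, without overlap (log2 fold change -1.46 ± 0.35, adjusted p = 0.0159, edgeR). The summed macrophage markers were 22060 ± 3214 CPM in CNT-7 and 29710 ± 4412 CPM in CNT-T without overlap (exact permutation p = 0.0286), of which Lyz2 gave at least 70.6% in each rat; without Lyz2 the exact permutation p-value was 0.0571.

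Ackr3 takes up Cxcl12 and so lowers what reaches Cxcr4. It was at 1.45, 3.02, 3.18 and 0.905 CPM in CNT-7 rats 3, 5, 10 and 11, and at 1.17, 0.621, 1.15 and 0.752 CPM in CNT-T rats 1, 2, 12 and 13. Rats 5 and 10 were high, rat 3 was slightly above the CNT-T rats, and rat 11 lay among them. The log2 fold change was 1.21 ± 0.42 (adjusted p = 0.0735, edgeR). The call was lost without CNT-7 rat 5 (adjusted p = 0.188) or 10 (0.176), and without CNT-T rat 2 (0.171), 12 (0.11) or 13 (0.151), while the log2 fold change in these fits stayed between 0.95 and 1.33.

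Ccrl2 binds chemerin and presents it to cells that carry Cmklr1. It was at 40.4, 48.1, 26.3 and 43.3 CPM in CNT-7 rats 3, 5, 10 and 11, and at 28.3, 29.1, 30.7 and 22.9 CPM in CNT-T rats 1, 2, 12 and 13. Rats 3, 5 and 11 were above all CNT-T rats and rat 10 was within their range, which is the opposite place to the one rat 10 held for Cx3cr1 and Ackr3. The log2 fold change of 0.51 ± 0.17 was the smallest among the receptors called higher (adjusted p = 0.0659, edgeR). The call was lost without CNT-7 rat 3 (adjusted p = 0.125), 5 (0.173) or 11 (0.119), and without CNT-T rat 1 (0.109), 2 (0.115) or 13 (0.149), with log2 fold changes between 0.40 and 0.53.

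Cmklr1, the signalling receptor for chemerin, was at 135, 94.9, 93.9 and 129 CPM in CNT-7 rats 3, 5, 10 and 11, and at 196, 178, 119 and 216 CPM in CNT-T rats 1, 2, 12 and 13. CNT-T rat 12 was lower than CNT-7 rats 3 and 11, and the other 3 CNT-T rats were above all CNT-7 rats. The log2 fold change was -0.65 ± 0.19 (adjusted p = 0.0387, edgeR), and without CNT-7 rat 5 it was -0.57 and no longer called (adjusted p = 0.106). Of Ccrl2 and Cmklr1, which both bind chemerin, the first was called higher and the second lower in CNT-7, and either call could be lost by leaving out a single rat. Rarres2, the gene of chemerin itself, had at most 1 count in any rat.

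The rats of the CNT-7 group kept a similar order over some receptors and not over others, a pattern noticed in the data and not tested. Rats 5 and 10 were the 2 highest of the 4 for Cx3cr1, Ccr7, Cxcr4 and Ackr3, and rat 11 was the lowest for Cx3cr1, Ccr7 and Ackr3. For Ccr1, Ccr3 and Cmklr1 the highest CNT-7 rat was rat 3. Rat 10 was the lowest for Ccrl2 and Cmklr1, and with rat 11 for Ccr3 (5 counts each). Rat 5 was the lowest for Ccr1, and rat 3 for Cxcr3 and Cxcr4. How often other genes show either order was not examined. The coefficient of variation was larger in CNT-7 than in CNT-T for 7 of the 9 receptors. Among these were Cx3cr1 (64.5% against 38.3%), Cxcr4 (37.1% against 20.9%), Ackr3 (53% against 30.4%) and Ccrl2 (23.8% against 12.2%). Ccr3 (173% against 49.6%) rests on rat 3, and Cxcr3 (76% against 24.5%) on 4 to 22 counts in CNT-7. It was smaller for Ccr7 (78.7% against 117%) and Cmklr1 (19.3% against 23.5%). The share over all genes was not computed, so the count cannot be read as a trait of the receptors. No gene length was used here, so that an order of genes by CPM, such as the most abundant marker of a list, also carries their lengths.

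Among 10162 named genes with a mean of at least 1 CPM (10163 for Ccr7 and Cxcr3), those with the profile over the 8 rats most like each receptor were found from the root mean square difference of centred log2 CPM. Tgm2, encoding transglutaminase 2, was nearest to Cx3cr1 at 0.262 log2 units, with 5302 ± 3012 CPM in CNT-7 and 313 ± 159 CPM in CNT-T, and Angptl8 followed at 0.458. The immediate early gene Fosb was among the 2 nearest to Ccr7, at 0.672. For Ccr1 these were Snx24 (0.253) and Nrip3 (0.263), and for Cmklr1 they were Gkap1 (0.179) and Map10 (0.196). Ackr3 was most like Tnnt3 (0.231) and Coro6 (0.25), and Ccrl2 was most like Cpne7 (0.123) and Sipa1l1 (0.125). Cxcr4 was nearest to Htr6 (0.185) and Zscan29 (0.189), and Cxcr3 to Tent5b (0.388) and Cxcl3 (0.448). A small difference is also what flat profiles give, so the distances cannot be compared between receptors.

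Other chemokine receptors were mostly too low to compare. Of 12 compared, 2 passed the filter, and 1 of these was called lower, beside 14% of all genes tested. Ackr4, which scavenges Ccl19 and Ccl21, was lower in CNT-7, at 0.404 ± 0.150 against 1.05 ± 0.497 CPM, with overlapping rats (log2 fold change -1.37 ± 0.45, adjusted p = 0.0579, edgeR). Cxcr2 was not called (log2 fold change 1.26 ± 0.63, adjusted p = 0.194, edgeR). Ackr4 and Cxcr2 were named after their values were seen, because the count is small. Their median log2 fold change of -0.05 lies between 2 genes that went opposite ways, and describes neither.

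Receptors for other chemoattractants were called higher in 8 of 12 tested and lower in 1, where 13.9% and 14% of all genes tested were. Their median log2 fold change was 0.90 beside 0.0083 for all genes tested. Among those for complement fragment C5a, C5ar1 rose from 370 ± 25.5 to 678 ± 104 CPM (log2 fold change 0.88 ± 0.11, adjusted p = 0.00102, edgeR) and C5ar2 from 5.23 ± 0.528 to 13.2 ± 4.58 CPM (1.33 ± 0.23, adjusted p = 0.0039). Both stood without overlap. Of the receptors for sphingosine 1-phosphate, S1pr2 rose from 8.29 ± 1.01 to 17.4 ± 1.35 CPM (1.07 ± 0.11, adjusted p = 0.000396) and S1pr4 from 2.43 ± 0.634 to 7.02 ± 2.62 CPM (1.53 ± 0.31, adjusted p = 0.00727). The leukotriene receptors Ltb4r and Cysltr1 had log2 fold changes of 1.14 (adjusted p = 0.0689, edgeR) and 0.84 (adjusted p = 0.00234). Gpr35, which responds to metabolites of tryptophan, had 0.92 (adjusted p = 0.0904, edgeR). The rats overlapped between the groups for Ltb4r and Gpr35, and not for Cysltr1.

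Outside the rule for named genes, since their means were under 1 CPM, were Gpr183 and Fpr2, named after their values were seen. Gpr183, the receptor that draws cells to oxysterols, passed the filter through the CNT-7 rats alone, as Ccr7 did, and without a filter its adjusted p-value was 0.000601 (edgeR). It had 25 to 45 counts in each CNT-7 rat and 1 to 6 in each CNT-T rat (log2 fold change 3.85 ± 0.46, adjusted p = 0.000717, edgeR). Fpr2, a formyl peptide receptor, was the receptor that was lower, with 1 to 12 counts against 15 to 31 (-1.81 ± 0.50, adjusted p = 0.0293). C3ar1, Ptafr and S1pr1 were not called.

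**Figure D2:**
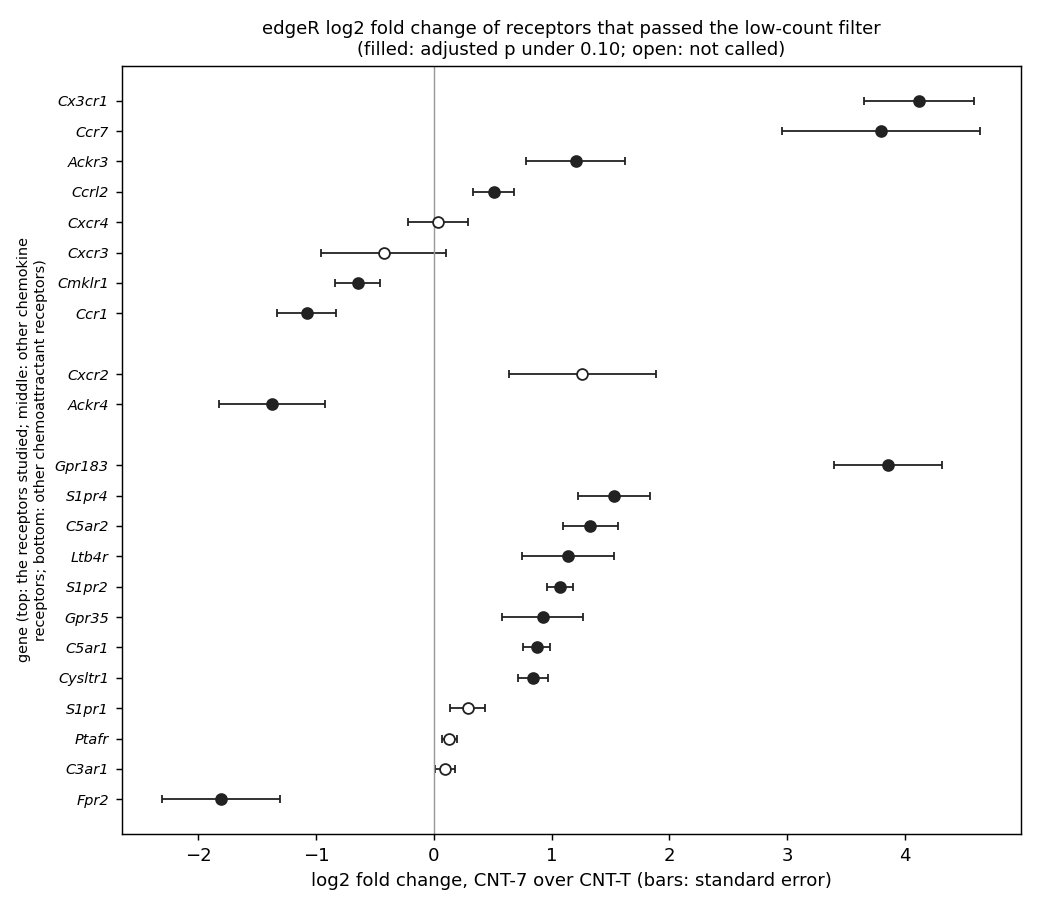
Log2 fold change, CNT-7 relative to CNT-T (horizontal axis, log2 units), with its standard error from edgeR, for receptors that passed the low-count filter; filled points passed the threshold of 0.10 on the adjusted p-value. Cx3cr1 (4.12), Gpr183 (3.85) and Ccr7 (3.80) lie farthest to the right, of which Gpr183 and Ccr7 passed the filter through the CNT-7 rats alone, and Fpr2 (-1.81) farthest to the left.

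Of 19 chemokines and chemerin listed as ligands, 11 were tested, and 4 were higher and 2 lower in CNT-7, beside 13.9% and 14% of all genes tested. The median log2 fold change was 0.32, against 0.0083 for all genes. The list also held Ccl2 and Cxcl16, whose best known receptors are not among the 9. Cxcl12, the ligand of Cxcr4 and Ackr3, rose from 0.514 ± 0.342 to 2.23 ± 0.589 CPM (log2 fold change 2.10 ± 0.45, adjusted p = 0.00969, edgeR), and Ccl9, a ligand of Ccr1, from 0.721 ± 0.300 to 3.25 ± 1.44 CPM (2.16 ± 0.46, adjusted p = 0.0092). Ccl2 (2.24) and Ccl7 (1.59) were also higher, and neither overlapped between the groups. The ligand Cxcl9 of Cxcr3 fell from 21.2 ± 10.3 to 5.44 ± 3.72 CPM (-1.96 ± 0.53, adjusted p = 0.0279), with overlapping rats. Ccl6, another ligand of Ccr1, was abundant and fell slightly, from 1697 ± 89.6 to 1451 ± 112 CPM (-0.23 ± 0.08, adjusted p = 0.0875). These are messages within the sorted macrophages and not the chemokines of the peritoneal fluid.

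Of the genes that act behind the receptors, 34 were tested, and 6 were higher and 8 lower, where 13.9% and 14% of all genes tested were. Their median log2 fold change was -0.05, against 0.0083 for all genes. Rgs2, which ends G protein signals, fell most, from 35.1 ± 1.76 to 14.1 ± 1.43 CPM (-1.32 ± 0.09, adjusted p = 7.04e-05, edgeR). Arrb2, the arrestin that uncouples and takes in activated receptors, fell from 714 ± 119 to 390 ± 102 CPM (-0.87 ± 0.19, adjusted p = 0.0113), while Grk3, a kinase that marks receptors for arrestins, rose from 19.8 ± 3.43 to 36.7 ± 2.71 CPM (0.89 ± 0.13, adjusted p = 0.00154). Plcb2, a phospholipase that G proteins activate, was lower (-0.72) and Rgs18 as well (-0.46). Prex1, an exchange factor for Rac, was higher (0.65), as were the kinases Fgr (0.61) and Lyn (0.31), the phosphoinositide 3-kinase subunit Pik3r5 (0.50) and the G protein subunit Gnai3 (0.34). The other 4 lower genes, outside the rule and named after their values were seen, were Pik3cg, the catalytic partner of Pik3r5 (-0.29), the receptor kinase Grk6 (-0.29), Gng2 (-0.28) and Pxn (-0.25).

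Promoter sequences of 8 of the receptors were taken from RefSeq (GRCr8), and the 250 bases before the gene start were searched on both strands. The letters GAGGAA, of the kind bound by the macrophage factor PU.1, were in 3 of the 8 (Ccr1, Ccr3 and Cmklr1) and in 23.3% of all 33469 promoters. The AP-1 type TGANTCA was in Ccr3 and Cmklr1 and in 6.34% of all, and the NF-kappaB type was in Ccr3, where it overlapped the PU.1 type, and in 6.33% of all. Neither the STAT type TTCNNNGAA, in 7.67% of all, nor the hypoxia response type ACGTG, in 16.6%, was in any of the 8. Shown here are both receptors called lower, which share the PU.1 type, and Cx3cr1, the receptor with the largest log2 fold change, in which none of these letters occur. Their windows are chr8:132439267-132439516 (minus strand), chr12:48680262-48680511 (plus strand) and chr8:128677067-128677316 (minus strand), read 5′ to 3′ along the gene. Capitals mark the PU.1 type (GAGGAA in Ccr1, TTCCTC on the opposite strand in Cmklr1) and the AP-1 type (TGAGTCA in Cmklr1). A match is a description of these letters and not a measured binding site.
Ccr1: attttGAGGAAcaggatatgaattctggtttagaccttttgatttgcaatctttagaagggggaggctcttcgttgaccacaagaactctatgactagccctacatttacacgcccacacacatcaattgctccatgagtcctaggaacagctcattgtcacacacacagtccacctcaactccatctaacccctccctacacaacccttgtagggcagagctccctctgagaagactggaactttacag
Cmklr1: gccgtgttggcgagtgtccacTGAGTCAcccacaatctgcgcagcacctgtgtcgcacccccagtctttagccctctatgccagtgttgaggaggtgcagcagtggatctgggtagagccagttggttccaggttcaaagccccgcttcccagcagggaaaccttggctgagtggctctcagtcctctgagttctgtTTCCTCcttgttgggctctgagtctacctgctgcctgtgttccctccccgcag
Cx3cr1: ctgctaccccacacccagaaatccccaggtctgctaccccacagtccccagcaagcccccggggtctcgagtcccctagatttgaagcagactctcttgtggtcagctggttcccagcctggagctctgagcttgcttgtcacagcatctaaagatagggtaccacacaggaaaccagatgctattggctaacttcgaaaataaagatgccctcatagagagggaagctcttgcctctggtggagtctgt

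Ccr1 and Ccr3 are adjacent genes in RefSeq's order (GRCr8). CNT-7 rat 3 was the highest of its group for both, whereas CNT-T rat 13 had the most Ccr1 of its group (96.9 CPM) and the least Ccr3 (0.107 CPM). Whether reads of either gene were assigned to the other was not tested.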

How the data were processed

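RNA-seq of sorted macrophages from 8 rats was used, and 0 columns were left out. The authors quantified reads with Salmon (version not given in the sources used here) in the ARMOR workflow against Ensembl rat cDNA (Rnor_6.0), imported them with tximeta, and deposited estimated counts per gene, not normalized. These were already whole numbers, so that rounding changed none.

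The quasi-likelihood test of edgeR 4.0.16 (R 4.3.3) compared 4 CNT-7 with 4 CNT-T rats, with TMM normalization, filterByExpr (minimum count 10, minimum total 15) and Benjamini-Hochberg adjustment over 12124 genes. CPM values use TMM-scaled library sizes. The summed levels of 10 marker lists, and Ccr3, were compared by a two-sided exact permutation test over 70 divisions. Profiles were compared as log2 CPM (prior count 2). Alternatives were DESeq2 1.42.0, upper-quartile normalization, other filters and thresholds, a covariate for low against high rat numbers, library totals without TMM factors, a prior count of 0.5, and each rat left out. Scripts were tested on simulated data. P-values of edgeR set the group difference against the spread between rats, moderated across genes. Those of the permutation test place the difference of means among the 70 divisions.

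Genes named are the 9 receptors, up to 10 called genes per list with the largest log2 fold change and a mean of at least 1 CPM, and the 2 genes most like each receptor tested. Members and lists were chosen with earlier results of these data known. Some genes are not reported here, and the lists leave them out. Correlation of log2 CPM between rats was 0.972 to 0.987 within and 0.942 to 0.966 between groups. Protein sequences, planned for comparison, were not used here. Promoters came from RefSeq (GRCr8), matched by symbol.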

Additional observations from a re-analysis of the deposited data

Results flagged for a closer look

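In groups of 4 rats, a rat was taken to stand apart where its gap to the nearest other rat, divided by the range of the group, was above Dixon's critical value for 4 samples. Chance gives this in about 1 of 20 groups. Of 104 groups examined, 9 held such a rat, where 5.2 would come by chance. None of the causes was tested.

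Among the receptors, CNT-7 rat 3 was high for Ccr3 (ratio 0.947), at 8.74 CPM where the other CNT-7 rats had 0.181 to 0.637 CPM. CNT-T rat 2 was high for Cx3cr1 (ratio 0.856), yet its 6.77 CPM was far below the lowest CNT-7 rat. Among the ligands, CNT-T rat 13 was high for Ccl7 (ratio 0.934), at 18.5 CPM against 4.35 to 5.27 CPM in its group, which brought it near the CNT-7 rats. CNT-7 rat 5 was low for Ccl6 (ratio 0.858), at 1285 CPM against 1487 to 1520 CPM. The same rat was low for Rgs18 (ratio 0.863), at 89.5 CPM against 105 to 107 CPM.

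Among the summed marker levels, CNT-7 rat 11 was low for the macrophage markers (ratio 0.869), at 17280 CPM against 23100 to 23980 CPM. CNT-T rat 13 was high for the monocyte markers (ratio 0.917), although it differed by little, with 3165 CPM against 3056 to 3065 CPM. It was also high for these markers without Plac8, the gene with the highest mean among them (ratio 0.842), at 1470 CPM against 833 to 934 CPM. CNT-T rat 2 was high for the B cell markers (ratio 0.946), at 6.27 CPM against at most 1.76 CPM in its group, and CNT-7 rat 5 had a like sum of 6.20 CPM.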

How the results depend on the processing

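No paired analysis was possible because the groups have no rat number in common. The number of genes called was 3383, and 1006 when at least a 2-fold change was also required. The number of receptors called higher was 4, and 2 at an adjusted p-value under 0.05 (Cx3cr1 and Ccr7). It was between 2 and 3 with each rat left out, with 2 without CNT-7 rat 5, CNT-T rat 2 or CNT-T rat 13. The number of receptors called lower was 2, and 1 with at least a 2-fold change (Ccr1). It was between 1 and 2 with each rat left out, with 1 without CNT-7 rat 5. Leaving out a rat also lowers the number of samples. Under upper-quartile normalization, DESeq2 and the covariate for low against high rat numbers, the counts stayed at 4 and 2. Without a filter on low counts Ccr3 was also called. The filter of 10 counts in every rat left Ccr7 out, and so gave no value for it. Cx3cr1, Ccr7 and Ccr1 kept their direction and their call under each alternative that gave a value. Summed marker levels changed direction without the most abundant gene in 3 lists, the monocyte markers (exact permutation p = 0.457, from a lower to a higher mean in CNT-7), the dendritic cell markers (exact permutation p = 0.0286, from lower to higher) and the neutrophil markers (exact permutation p = 0.171, from a higher to a lower mean, past the threshold in neither sum). The summed eosinophil markers had an exact permutation p of 0.0571, and of 0.0286 with library totals without TMM factors or without Siglec5. With a prior count of 0.5, 1 of the 2 genes most like Ccr7, and 1 of those most like Cxcr3, was another. At this depth Ccr3, Ccr7 and Cxcr3 were near the limit of what could be compared.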
